A study of Mus musculus with 10 samples.

Results

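The endogenous opioid system was followed through 7 genes of single neurons picked by hand from the mouse paraventricular hypothalamus (PVH). The genes were taken by symbol from the 48397 listed. They were the 3 precursor genes *Penk* (proenkephalin), *Pdyn* (prodynorphin) and *Pnoc* (prepronociceptin), and the 4 receptor genes *Oprk1* (kappa), *Oprm1* (mu), *Oprd1* (delta) and *Oprl1* (nociceptin receptor). There was 1 group of samples and no treatment: 10 plates of picked cells from male offspring of Agrp-IRES-Cre mice crossed with the Ai9 tdTomato reporter, over 7 weeks old. The labels describe the picked cells as fluorescent, whereas the study's methods use the labelled axons to outline the nucleus. *Agrp*, the gene that drives this Cre, had a molecule in 12 of 664 PVH cells. By their names, 4 plates belong to a Q series, 2 to an AL series and 4 to a JM series, which are called prefixes here. Cells were picked by hand, so the number of cells in a cluster is not a share of the tissue.

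Opioid precursors are cut inside secretory granules into short peptides. Enkephalins act mainly on the delta and mu receptors, dynorphins on the kappa receptor and nociceptin on its own receptor. All 4 receptors couple to inhibitory G proteins, which open potassium channels, close calcium channels and lower cyclic AMP. In the magnocellular neurons of the PVH, dynorphin is packed with vasopressin, and kappa receptors are known to restrain oxytocin and vasopressin release.

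The deposited table assigns 706 cells to 15 clusters, of which 5, 6 and 11 (42 cells) are classed as outside the PVH and the other 12 (664 cells) as PVH types. A cell held 50646 to 1078101 molecules counted by unique molecular identifier (UMI), with a median of 128671.5. Plate medians were 188176.5 to 283709 on Q plates and 69514 to 127829 on AL and JM plates. *Slc32a1*, the vesicular GABA transporter, had a UMI in 0 of 664 PVH cells, and *Slc17a6*, the glutamate transporter, in 534. *Sim1*, a transcription factor of PVH neurons, had one in 398 of 664 PVH cells and 2 of 42 others. Clusters are named here by number with the neuropeptide gene that stood out in them: *Oxt* in 1 and 12, *Avp* in 2 and 3, *Pdyn* beside abundant *Avp* in 4, *Crh* in 10 and 13, *Trh* in 9 and 15, *Sst* in 7 and 8, and *Penk* in 14.

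A cell was called positive with at least 1 UMI. Levels are UMIs summed over the cells of a cluster on a plate, scaled to 1e+06 UMIs (CPM), on plates with at least 3 such cells. Of 40 control wells with little RNA, 1 well held 1 UMI of *Penk*, 1 held 1 of *Pdyn*, 1 held 1 of *Oprl1*, and none held any of the other 4 genes. These wells were identified from the authors' totals, not from a label. Over all 80 wells of the control columns, *Penk* was in 3, *Pdyn* in 1, and *Oprk1* and *Oprl1* in 2 each, with at most 2 UMIs. *Pnoc*, *Oprm1* and *Oprd1* were in none. The very abundant *Oxt* and *Avp* had a UMI in 656 and 641 of the 664 PVH cells and in 40 and 42 of the 42 others, at far lower levels outside their own clusters. No cell had the same counts as another. The clusters were drawn from these same cells and genes. The p-values below weigh a difference against its spread over plates and, for that reason, are not independent evidence for it. Separate animals behind the plates cannot be told apart from technical spread, because the labels do not tie plates to animals.

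*Pdyn* and *Oprl1* were each detected in 425 of 706 cells, *Oprk1* in 302, *Penk* in 132, *Pnoc* in 37, *Oprm1* in 36 and *Oprd1* in 4. The spread over PVH clusters set them apart. *Oprl1* was in over 40% of the cells of all 12 PVH clusters, *Pdyn* of 7, *Oprk1* of 2, *Penk* and *Pnoc* of 1 each, and *Oprm1* and *Oprd1* of none.

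**Figure D1:**
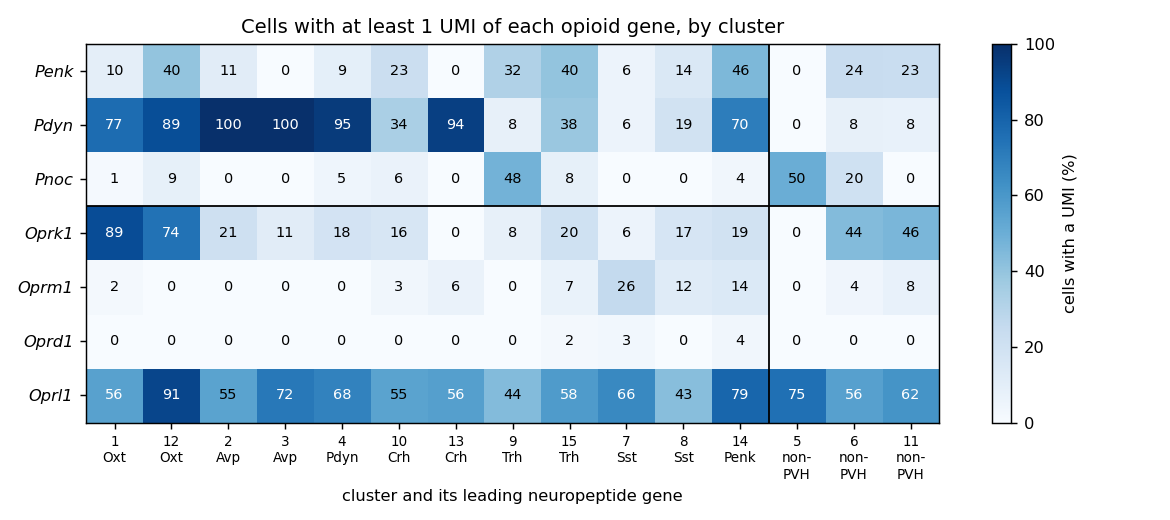
Share of cells with at least 1 UMI (color and printed percent) for the 3 precursor genes (rows above the line) and 4 receptor genes in each cluster; columns right of the vertical line are the non-PVH clusters. *Pdyn* filled the Avp clusters, *Oprk1* the Oxt clusters, *Pnoc* peaked among PVH types in cluster 9, and *Oprl1* was present in every column.

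Each PVH cluster was compared with the other PVH cells of the same plates. Over the 12 clusters, 5 of 52 tests of a member passed as higher and 17 as lower (edgeR quasi-likelihood test, Benjamini-Hochberg adjusted p under 0.05). Over all genes, 1.05% of 130901 tests passed as higher and 2.24% as lower. *Penk* and *Pdyn* are among the cluster marker genes that the study named from these same cells. The member shares are therefore not independent of the clustering. *Oprm1* had enough UMIs to be tested in 1 cluster, *Pnoc* in 3 and *Oprd1* in none, while the other 4 members were tested in all 12. The median log2 fold change of all genes lay below 0, from -0.82 in cluster 9 to -0.08 in cluster 1, and the fold changes given here are not shifted by it. The SE given with a fold change is its absolute value divided by the square root of the F statistic of the test.

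*Pdyn*, the dynorphin precursor, was the precursor of the vasopressin clusters. It had a UMI in 110 of the 111 cells of clusters 2, 3 and 4 (99.1%, exact 95% binomial interval 95.1 to 99.98%). Intervals cover counting error only. In cluster 2 the level was 471 CPM on plate Q5, 234 on Q6, 283 on Q7, 233 on Q8 and 403 on JM8. In cluster 3 it was 581 on AL5, 434 on AL6, 442 on JM6, 682 on JM7 and 830 on JM8. In cluster 4 it was 876 on AL5, 1063 on AL6, 967 on JM5, 873 on JM6 and 513 on JM8. Every one of these values lay above the other PVH cells of its plate.

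Cluster 2 rose by a log2 fold change of 1.97 (SE 0.25, edgeR adjusted p = 0.00186). Cluster 3 rose by 1.35 (SE 0.18, edgeR adjusted p = 0.000958) and cluster 4 by 1.96 (SE 0.17, edgeR adjusted p = 1.2e-06). Each was higher on 5 of 5 plates. Of all genes tested, 0.469% passed as higher in cluster 2. The share was 1.04% for cluster 3 and 0.243% for cluster 4, and *Pdyn* was the 1 member that passed as higher in each. The levels of 858 ± 208 CPM (SD, n = 5 plates) in cluster 4 and 594 ± 168 CPM in cluster 3 overlapped within 1 SD. Clusters 3 and 4 came almost wholly from AL and JM plates (57 of 58 cells) and cluster 2 mostly from Q plates (48 of 53 cells), so the order of cluster 2 against clusters 3 and 4 cannot be told apart from the plate prefix.

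The oxytocin clusters also carried *Pdyn*, at a lower level. It was in 170 of 221 cells of cluster 1 (76.9%) and 31 of 35 of cluster 12 (88.6%). In cluster 1 the 10 plates ran from 54.2 to 242 CPM with a median of 102, all below the other PVH cells of their plate, whose mean was 262 ± 134 CPM. The log2 fold change was -1.03 (SE 0.18, edgeR adjusted p = 0.000742). It was -1.43 on the AL and JM plates alone (edgeR adjusted p = 0.000451) and -0.41 on the Q plates alone, where it did not pass (edgeR adjusted p = 0.362). In cluster 12 the 6 plates ran from 75.9 to 642 CPM, and the log2 fold change of 0.22 did not pass (edgeR adjusted p = 0.843).

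Of the 2 clusters named for *Crh*, 13 had *Pdyn* in nearly every cell and 10 in a minority, a contrast that was not tested directly. Cluster 14, named for *Penk*, also held *Crh*, at a mean over cells of 557 CPM against 688 in cluster 13 and 1700 in cluster 10, and had *Pdyn* in 40 of 57 cells. Corticotropin-releasing hormone, made from *Crh*, drives the pituitary stress axis. Cluster 13 had *Pdyn* in 15 of 16 cells, at 445, 234 and 447 CPM on its 3 plates, while cluster 10 had it in 21 of 62 cells. Cluster 10 split by plate: 17.1% of 41 Q cells were positive against 66.7% of 21 AL and JM cells. Its level was 0 to 18.7 CPM on the 4 Q plates and 82.0 to 210 CPM on the other 3, without overlap. *Pdyn* passed as lower in cluster 10 over all 7 plates (log2 fold change -2.78, SE 0.63, edgeR adjusted p = 0.0146), but not on the Q plates alone (-4.71, edgeR adjusted p = 0.0657) or the AL and JM plates alone (-1.02, edgeR adjusted p = 0.178). It was also lost without plate Q6 (edgeR adjusted p = 0.150) or Q8 (0.117).

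*Pdyn* was nearly absent from the *Sst* cluster 7 and the *Trh* cluster 9, each with 2 positive cells, of 35 and 25. The level was 4.94 ± 13.7 CPM (SD, n = 8 plates) in cluster 7 and 1.33 ± 1.68 (n = 4) in cluster 9. Both passed as lower, with log2 fold changes of -7.30 (SE 0.69, edgeR adjusted p = 2.8e-07) and -6.88 (SE 0.95, edgeR adjusted p = 0.000905). The second *Trh* cluster, 15, was positive in 23 of 60 cells (38.3%) and the *Penk* cluster, 14, in 40 of 57 (70.2%). Their levels of 133 ± 93.0 and 208 ± 108 CPM (n = 8 plates each) did not pass as different from the other clusters. From the highest level in cluster 4 to the lowest in cluster 9, each cluster's mean ± SD overlapped that of the next in order.

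**Figure D2:**
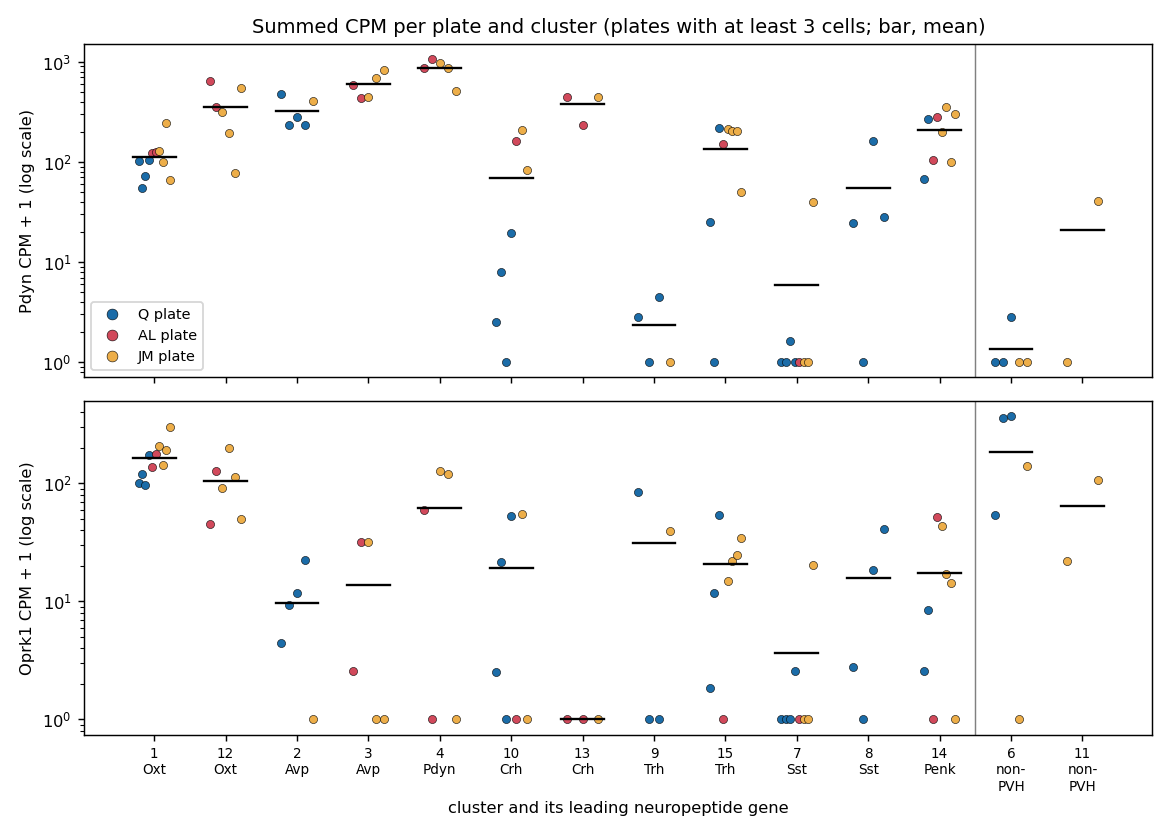
*Pdyn* (upper) and *Oprk1* (lower) level per plate and cluster as CPM + 1 on a log scale; each point is the sum over at least 3 cells of a cluster on a plate, colored by plate prefix, and bars are means. Cluster 5, with 4 cells, has no such plate. The *Pdyn* points of clusters 2, 3 and 4 sit between 233 and 1063 CPM, and the *Oprk1* points of cluster 1 between 95.3 and 302 CPM.

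*Penk*, the enkephalin precursor, was abundant in some cells of cluster 14 and not detected in the rest. In cluster 14, 31 of 57 cells had no UMI, 6 had 1 to 19 and 20 had at least 20, of which 16 reached 100. Positive cells had a median of 1684 CPM and reached 9313. The median depth was 91531 UMIs in the positive cells and 117214 in the negative ones, so the cells without *Penk* had the higher median depth. By plate, the level was 1277 CPM on Q5, 1450 on Q7, 239 on AL5, 2945 on AL6, 1918 on JM5, 1827 on JM6, 0 on JM7 and 537 on JM8.

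The cluster 14 level of 1274 ± 984 CPM (SD, n = 8 plates) was above the other PVH cells on 7 of 8 plates, the exception being JM7, where none of 7 cells was positive. The log2 fold change of 3.66 (SE 1.15) did not pass (edgeR adjusted p = 0.141). It passed without JM7 (4.14, edgeR adjusted p = 0.0106), with DESeq2 (adjusted p = 0.0012) and without the plate term (edgeR adjusted p = 0.025). On the AL and JM plates alone it was 3.31 (edgeR adjusted p = 0.373).

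*Penk* was found in a minority of cells of 5 further PVH clusters. It was in 24 of 60 cells of the *Trh* cluster 15, 14 of 35 of the *Oxt* cluster 12, 8 of 25 of the *Trh* cluster 9, 14 of 62 of the *Crh* cluster 10 and 6 of 42 of the *Sst* cluster 8. Most of these positive cells held at least 3 UMIs, in 23 of 24 cells in cluster 15 and 13 of 14 in cluster 12. In cluster 10 the share was 31.7% on Q plates and 4.76% on AL and JM plates, the opposite order to *Pdyn* in the same cluster. *Penk* passed there as higher on the Q plates alone (2.56, higher on 4 of 4, edgeR adjusted p = 0.0386) and as lower on the AL and JM plates alone (-4.36, lower on 3 of 3, edgeR adjusted p = 4.55e-05). The 2 prefixes were not tested against each other. Over all plates none of these 5 clusters passed as different from the rest, and their levels, between 88.0 ± 129 and 314 ± 267 CPM, overlapped within 1 SD.

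*Penk* passed as lower in 6 clusters: the large *Oxt* cluster 1, the 3 *Avp*-rich clusters 2, 3 and 4, the *Sst* cluster 7 and the *Crh* cluster 13. Cluster 1 held 3.75 ± 9.73 CPM (10 plates) and cluster 7 held 3.83 ± 10.3 (8 plates). Clusters 2 and 4 held 0.476 ± 0.609 and 1.31 ± 1.82 CPM (5 plates each). The log2 fold change against the other PVH cells was -7.14 (cluster 1), -7.72 (cluster 2), -7.95 (cluster 4) or -6.85 (cluster 7). Cluster 3 (36 cells) and cluster 13 (16 cells) held no *Penk* UMI, which allows up to 8.33% and 18.8% of cells with a UMI. Against a floor of 3 UMIs over the cluster, *Penk* was at least 261-fold lower in cluster 3 and at least 90.8-fold lower in cluster 13 than in the other PVH cells of those plates. The edgeR adjusted p of these 6 results ran from 3.04e-11 to 0.00022. On Q plates alone cluster 7 was at -5.95 and did not pass (edgeR adjusted p = 0.0822), and without the plate term cluster 13 did not (edgeR adjusted p = 0.0959).

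Of the 2 oxytocin clusters, cluster 1 had *Penk* in 9.50% of cells and cluster 12 in 40%, a difference that was not tested directly. Of the 21 positive cells of cluster 1, 18 held only 1 or 2 UMIs, against 1 of the 14 in cluster 12. The share in cluster 1 was 16.8% on the Q plates and 2.63% on the AL and JM plates. Its positive cells had a median depth of 385688 UMIs and its negative cells 167502. After cells were thinned to 63046 UMIs and shallower cells left out, the share was 4.17% of 216 cells in cluster 1. In cluster 12 it was 44.8% of the 29 cells that remained. The part of depth in the cluster 1 share was not tested.

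*Pnoc*, the nociceptin precursor, was a gene of the *Trh* cluster 9 among PVH types. It was in 12 of 25 cells there (48.0%, interval 27.8 to 68.7%), and in 18 of the 639 cells of the other PVH clusters. The level was 252 CPM on Q5, 178 on Q6, 139.5 on Q7 and 84.7 on JM8, each above the other PVH cells of the plate, which averaged 1.67 ± 1.85. The log2 fold change was 7.41 (SE 1.40, edgeR adjusted p = 0.0244), where 0.472% of genes tested in the cluster passed as higher. The call was lost without plate Q6 (6.45, edgeR adjusted p = 0.144), Q7 (8.75, 0.0531) or JM8 (8.82, 0.0555). In the same cluster 0.774% of genes passed as lower, *Pdyn* among them. *Pnoc* had no UMI in 182 cells of the clusters 2, 3, 7, 8 and 13. Without the filter on low counts it passed as lower in cluster 1 (-7.57, edgeR adjusted p = 1.34e-05) and in cluster 7 (edgeR adjusted p = 0.0291), and the rise in cluster 9 did not pass (7.40, edgeR adjusted p = 0.11). The second *Trh* cluster, 15, had it in 5 of 60 cells, at 9.44 ± 15.8 CPM (n = 8 plates), below and not overlapping cluster 9 at 164 ± 70.3 CPM within 1 SD.

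**Figure D3:**
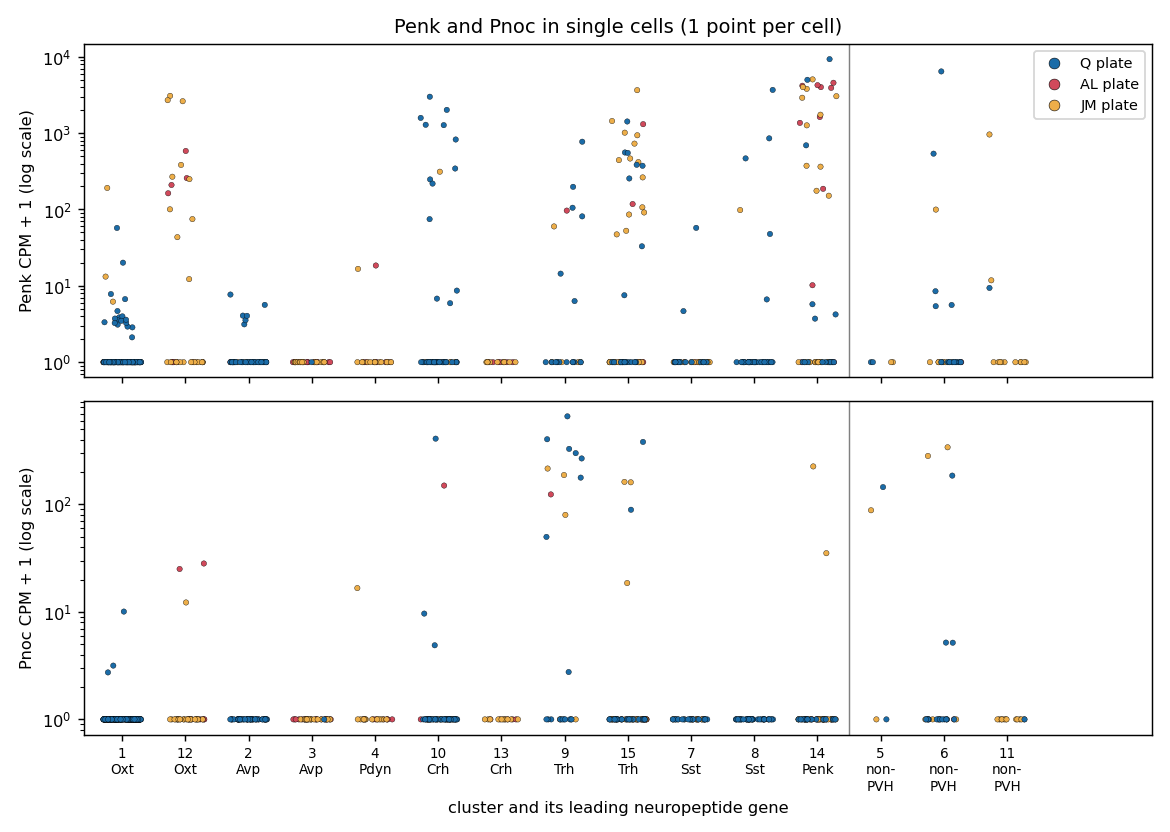
*Penk* (upper) and *Pnoc* (lower) in each of 706 cells as CPM + 1 on a log scale, by cluster and colored by plate prefix; points on the baseline had no UMI. *Penk* in cluster 14 fell into a set at 0 (31 cells) and a set reaching 9313 CPM, and most *Penk* points of cluster 1 lie just above the baseline.

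*Oprk1*, the kappa receptor on which dynorphins act, had its highest mean levels among PVH types in the oxytocin clusters. It was in 196 of 221 cells of cluster 1 (88.7%, interval 83.8 to 92.5%) and 26 of 35 of cluster 12 (74.3%, 56.7 to 87.5%). On the Q plates the cluster 1 level was 99.8, 120, 95.3 and 174 CPM for Q5 to Q8. On AL5 and AL6 it was 138 and 178 CPM, and on JM5 to JM8 it was 206, 142, 189 and 302 CPM. All 10 lay above the other PVH cells of their plate, which averaged 27.7 ± 23.7 CPM. The log2 fold change was 3.11 (SE 0.32, edgeR adjusted p = 4.4e-06), among 5.60% of genes passing as higher in that cluster. It was 3.63 on Q plates and 2.74 on AL and JM plates, and passed in each.

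Cluster 12 had 103 ± 56.9 CPM of *Oprk1* (n = 6 plates), which overlapped cluster 1 at 164 ± 61.1 CPM within 1 SD. Its comparison partners included cluster 1, and the log2 fold change of 0.12 did not pass (edgeR adjusted p = 0.92).

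The vasopressin clusters, in contrast to their *Pdyn*, had little kappa receptor, as did the other PVH clusters outside the Oxt clusters 1 and 12. Among those others the share of cells with *Oprk1* ran from 0% in cluster 13 to 20% in cluster 15. A UMI was found in 19 of 111 cells of clusters 2, 3 and 4 (17.1%, interval 10.6 to 25.4%), against 222 of 256 (86.7%, 81.9 to 90.6%) in the Oxt clusters 1 and 12. Per plate the Avp set had 22.9 ± 32.4 CPM and the Oxt set 153 ± 45.9 CPM (n = 10 plates each), and the highest Avp value of 99.6 CPM lay above the lowest Oxt value of 95.3. *Oprk1* passed as lower in cluster 2 (log2 fold change -3.16, SE 0.64, edgeR adjusted p = 0.0302) and cluster 3 (-3.80, SE 0.74, edgeR adjusted p = 0.0125). In cluster 4, where the 5 plates held 0, 0, 58.7, 119 and 126 CPM, the change of -1.35 did not pass (edgeR adjusted p = 0.636). The cluster 2 call was lost without any 1 of its 5 plates, with edgeR adjusted p of 0.0744 to 0.123 without Q5, Q6, Q7, Q8 or JM8. The cluster 3 call was lost without AL5 (edgeR adjusted p = 0.0738).

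*Oprk1* also passed as lower in the *Sst* cluster 7, the *Crh* clusters 10 and 13 and the *Penk* cluster 14. The comparison partners of these clusters, and of clusters 2 and 3, included cluster 1 with its high level. The PVH cells outside cluster 1 averaged 27.7 ± 23.7 CPM. Beside this, cluster 10 held 18.2 ± 24.7 CPM, cluster 14 held 16.5 ± 19.7, cluster 3 held 12.6 ± 16.6 and cluster 2 held 8.76 ± 8.15. Clusters 7 and 13 held 2.63 ± 6.82 and 0. The part of cluster 1 in these lower calls was not tested. Cluster 13 held none in 16 cells at a median depth of 74688.5 UMIs, at least 38.9-fold below the other PVH cells of its plates against the same floor. At a median depth of 85124 UMIs, cluster 12 had it in 74.3% of cells. The part of depth in the cluster 13 value was not tested. Cluster 7 had it in 2 of 35 cells (log2 fold change -6.92, edgeR adjusted p = 0.000195). Cluster 14 had it in 11 of 57 (-3.35, edgeR adjusted p = 0.00603) and cluster 10 in 10 of 62 (-3.69, edgeR adjusted p = 0.0356). Cluster 10 lost the call without Q5, Q7, AL5 or JM8, with edgeR adjusted p of 0.0647 to 0.102. On AL and JM plates alone cluster 7 was at -5.20 (edgeR adjusted p = 0.0507), and on Q plates alone cluster 10 was at -3.29 (edgeR adjusted p = 0.235).

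Counted by cluster, lower members were 3 of 4 tested in cluster 1 (background 6.30% of genes), 2 of 5 in cluster 2 (0.793%), 2 of 4 in cluster 3 (1.91%) and 1 of 4 in cluster 4 (0.427%). They were 3 of 4 in cluster 7 (4.97%), 2 of 4 in cluster 10 (3.55%), 2 of 4 in cluster 13 (1.13%) and 1 of 4 in cluster 14 (3.98%). In cluster 9 it was 1 of 5 (0.774%). Clusters 8, 12 and 15 had no member past the threshold in either direction. At an unadjusted edgeR p under 0.05, 3 of 6 members tested were lower in cluster 8 (*Oprk1*, *Pdyn* and *Pnoc*), 0 of 4 differed in cluster 12, and 1 of 4 was lower in cluster 15 (*Oprk1*). DESeq2 called *Oprk1* as lower in clusters 8 and 15 and no member in cluster 12.

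*Oprm1*, the receptor of morphine and of enkephalins, was sparse. It was in 34 of 664 PVH cells, 22 of them with at least 3 UMIs. The *Sst* cluster 7 had the highest share, 9 of 35 cells (25.7%, interval 12.5 to 43.3%), followed by the *Penk* cluster 14 with 8 of 57 (14%) and the *Sst* cluster 8 with 5 of 42 (11.9%). In cluster 7 the level was 1.73 CPM on Q5, 18.0 on Q6, 10.6 on AL5, 35.2 on JM5, 5.55 on JM6 and 15.6 on JM7, with 0 on Q7 and Q8. The 171 cells of clusters 2, 3, 4, 9 and 12 held none. The mean levels of the clusters that had any overlapped within 1 SD, and the 1 test that the filter on low counts left, in cluster 8, did not pass (log2 fold change 2.17, SE 3.47, edgeR adjusted p = 0.887). Without that filter all 12 clusters had a test, and *Oprm1* passed as lower in cluster 1 alone (-4.68, lower on 10 of 10 plates, edgeR adjusted p = 0.0116).

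*Oprd1*, the delta receptor, was in 4 of 706 cells: 2 of cluster 14, 1 of cluster 7 and 1 of cluster 15. These cells held at most 8 UMIs. No UMI in the 221 cells of cluster 1 allows up to 1.36% of cells with a UMI, which does not limit the cells that express the gene. At this number of cells, differences between clusters in *Oprd1* were not detectable.

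*Oprl1*, the nociceptin receptor, was the broadest member. The share ran from 42.9% of cells in cluster 8 to 91.4% in cluster 12, and the level from 28.2 ± 27.0 CPM in cluster 9 to 180 ± 79.8 CPM in cluster 12, each cluster overlapping the next within 1 SD. In cluster 9, the one with the most *Pnoc*, it was 1.81 CPM on Q5, 7.96 on Q6, 53.1 on Q7 and 49.7 on JM8, all below the other PVH cells of the plate, and did not pass (log2 fold change -2.10, SE 0.99, edgeR adjusted p = 0.338). The 1 call was in cluster 1, lower on 10 of 10 plates at 67.5 ± 24.7 against 100.4 ± 41.0 CPM (log2 fold change -0.42, SE 0.13, edgeR adjusted p = 0.0491). It was lost without any 1 of 8 plates (all but Q6 and Q7, edgeR adjusted p of 0.0515 to 0.136) and with RLE size factors (edgeR adjusted p = 0.0551).

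Precursor and receptor genes, whether or not the peptide acts on that receptor, were often found in the same cell of the *Oxt* and *Avp*-rich clusters. At least 1 precursor and at least 1 receptor were detected together in 85.7% of cells of cluster 12 and 76.5% of cluster 1 (*Oxt*), and in 77.3% of cluster 4, 72.2% of cluster 3 and 62.3% of cluster 2 (*Avp*-rich). The share was 68.4% for cluster 14 and 62.5% for cluster 13, and 5.71% to 48.3% for the other 5 PVH clusters. *Pdyn* with *Oprk1* was in 157 of 221 cells of cluster 1 (71.0%) and 23 of 35 of cluster 12 (65.7%). In the *Avp*-rich clusters 2, 3 and 4 that pair was in 20.75%, 11.1% and 18.2% of cells. *Pdyn* with *Oprl1*, the nociceptin receptor, was in 54.7%, 72.2% and 63.6% of them. It was in 45.7% of cells of cluster 1 and 80% of cluster 12. All 19 *Oprk1* cells of clusters 2, 3 and 4 carried *Pdyn*, which nearly all cells there did. Cluster 13 had *Pdyn* without *Oprk1* in 15 of 16 cells. *Penk* cells carried *Pdyn* to a different degree from cluster to cluster: 14 of 14 in cluster 12, 21 of 26 in cluster 14, 10 of 24 in cluster 15, 2 of 8 in cluster 9, 0 of 14 in cluster 10 and 0 of 6 in cluster 8. In cluster 10, where the plate prefixes divided both genes, 43.8% of the cells without *Penk* had *Pdyn*. Over all PVH cells, 70 held both against 67.9 expected within plate and cluster. *Pnoc* with *Oprl1* was in 7 of 25 cells of cluster 9.

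Such overlap can follow from the cluster shares alone, so each pair was compared with the number expected if both genes fell independently within every plate and cluster. *Pdyn* and *Oprk1* were together in 220 PVH cells against 212 expected, an excess of 1.18 ± 0.895 percent points of PVH cells (SD, n = 10 plates) that was above 0 on 9 plates (exact two-sided sign-flip p = 0.00391, adjusted over 21 pairs 0.082). *Pdyn* and *Oprl1* were together in 282 against 274, an excess of 1.24 ± 1.41 points on 8 of 10 plates (exact p = 0.0195, adjusted 0.205). None of the 21 pairs passed after adjustment, and 2 had an unadjusted exact p under 0.05.

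In cluster 1, *Oprk1* was in 92.4% of the cells with *Pdyn* and 76.5% of those without. The median depth was 177272 UMIs in the cells with *Pdyn* and 264585 in those without. With cells thinned to equal UMIs the excess of *Pdyn* with *Oprk1* was 0.75 points (exact test, adjusted p = 0.759). The pair with the largest shortfall was *Penk* with *Oprm1*, at 4 cells against 6.4 expected (-0.427 ± 0.709 points, exact p = 0.0859, adjusted 0.451).

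**Figure D4:**
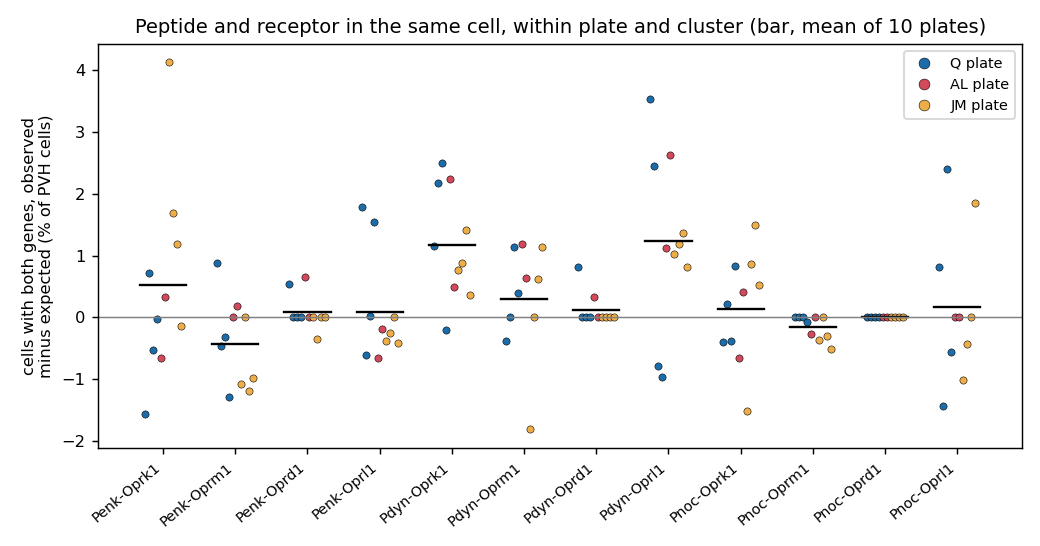
Observed minus expected cells with both genes, in percent of the PVH cells of a plate, for the 12 precursor and receptor pairs; each point is 1 of 10 plates colored by prefix and bars are means. *Pdyn* with *Oprk1* lies above 0 on 9 of 10 plates and *Pdyn* with *Oprl1* on 8, while the other pairs straddle 0 or hold too few cells. No pair passed after adjustment.

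The clusters outside the PVH were poor in *Pdyn*. It was in 3 of their 42 cells (7.14%, interval 1.5 to 19.5%) against 422 of 664 PVH cells (63.6%), at median depths of 107200 and 130100 UMIs. Within plates the PVH share was higher by 58.2 ± 19.6 percent points, on 9 of 9 plates that held both (exact two-sided sign-flip p = 0.00391, adjusted over 7 genes 0.0273). With 8 plates the smallest adjusted p this test can give is 0.0547, which is what leaving out any 1 of the 9 plates gave. The other 6 members did not pass. *Oprk1* was in 11 of 25 cells of cluster 6 and 6 of 13 of cluster 11, and *Oprl1* in 25 of the 42. The *Oprk1* level of cluster 6 was 184 ± 171.5 CPM (SD, n = 5 plates), beside 164 ± 61.1 CPM in the *Oxt* cluster 1 (n = 10). *Pnoc* was in 7 of the 42 (16.7%) and 30 of 664 PVH cells (4.52%), a within-plate difference of -6.23 ± 11.5 points (exact p = 0.188, adjusted 0.456). *Penk* was in 9 of the 42, of which 4 held at least 3 UMIs and 1 reached 1298 UMIs.

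Cluster 1 was the only PVH cluster with at least 3 cells on all 10 plates, and there the plate prefixes were compared. *Oprl1* was in 46.6 ± 17.1% of its cells on the 4 Q plates and 64.4 ± 4.55% on the other 6 (two-sided exact permutation p = 0.0476, adjusted over 7 genes 0.217). *Pdyn* was in 74.1 ± 13.2% and 84.8 ± 9.55% (exact p = 0.176, adjusted 0.308), and *Oprk1* in 86.8 ± 8.66% and 91.8 ± 7.28%. None of the 7 members passed after adjustment, and 1 had an unadjusted exact p under 0.05.

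The Q plates were the deeper ones. With cells thinned to 63046 UMIs, *Pdyn* was in 59.6 ± 9.71% of cluster 1 cells on Q plates and 83.4 ± 9.09% on the others, without overlap, and passed (exact p = 0.00476, the smallest this design allows, adjusted 0.0333). *Oprl1* then stood at 41.7 ± 13.3% and 63.4 ± 4.59% (exact p = 0.0143, adjusted 0.05). Animals, picking and sequencing depth cannot be told apart behind the prefixes.

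**Figure D5:**
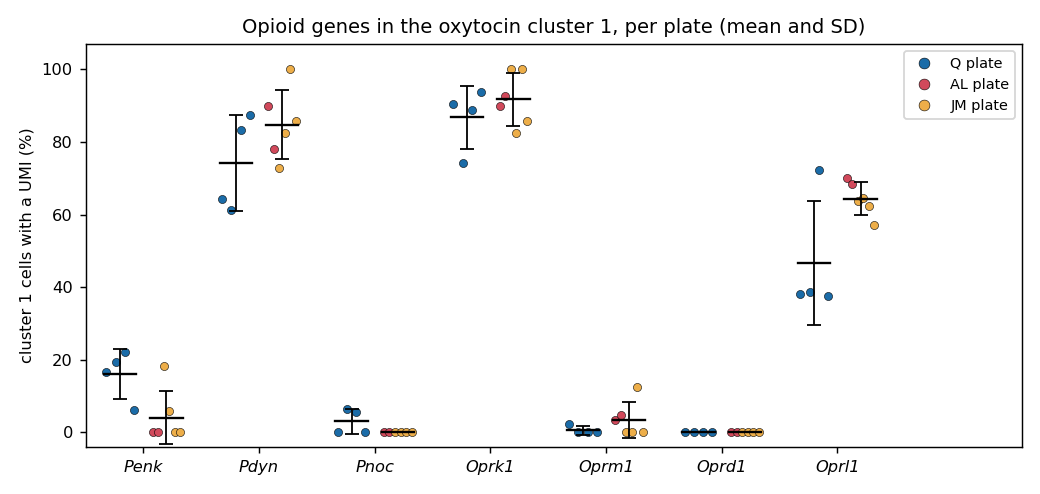
Share of cluster 1 cells with a UMI of each member per plate, Q plates left and AL and JM plates right of each gene, with mean and SD. *Pdyn* and *Oprl1* means were 10.7 and 17.8 points lower on Q plates, with overlapping points.

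Beside the members, 70 genes of opioid peptide processing and receptor signaling were listed, of which 62 had enough UMIs for a test. Over 683 tests in 12 clusters, 23 passed as higher (3.37%) and 48 as lower (7.03%), against the 1.05% and 2.24% of all tests, with a median log2 fold change of -0.26. Prohormone processing held the most, with 10 of 109 tests higher and 27 lower. Of its 9 genes tested, 5 passed as lower in cluster 12, where 1.26% of all genes did, 6 in cluster 14 (3.98% of all genes) and 5 in cluster 15 (1.81%). In cluster 3, 4 of 9 passed as higher (1.04% of all genes) and 1 as lower (1.91%).

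*Pcsk1* and *Pcsk2*, the proteases that cut opioid precursors at paired basic residues, were singled out after their values were seen. *Pcsk1* was higher in cluster 1 on 10 of 10 plates (224 ± 29.4 against 113 ± 27.5 CPM; log2 fold change 1.12, edgeR adjusted p = 1.25e-05). *Pcsk2* was lower there on 10 of 10 (44.1 ± 12 against 178 ± 57.2 CPM; -1.86, edgeR adjusted p = 5.8e-08). In the *Penk* cluster 14, *Pcsk1* was lower on 8 of 8 plates (26.5 ± 36.0 against 172 ± 25.7 CPM; -3.61, edgeR adjusted p = 0.00192), and *Pcsk2* did not pass (-0.09, edgeR adjusted p = 0.87). *Pcsk2* was higher in clusters 3 (1.10, edgeR adjusted p = 0.0159) and 13 (1.33, edgeR adjusted p = 0.00751). It did not pass in the other clusters with *Pdyn* in most cells, at 1.00 in cluster 2 (edgeR adjusted p = 0.0967), 0.64 in cluster 4 (0.369) and 0.09 in cluster 12 (0.918).

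*Pcsk5*, another convertase, had the largest change of the processing list, at 1.29 ± 3.43 CPM in cluster 1 against 5.81 ± 3.08 (log2 fold change -4.73, edgeR adjusted p = 0.0138). Of peptide degradation, 1 of 84 tests passed, *Ece2*, an endothelin-converting enzyme, in cluster 1 (94.7 ± 12.95 against 76.9 ± 18.4 CPM; 0.45, higher on 7 of 10 plates, edgeR adjusted p = 0.0425). The shares for peptide degradation (1.19% higher), Gi and Go subunits (1.47% higher, 2.21% lower) and effectors (2.38% each way) were near those of all genes. Of Gi and Go protein subunits, 2 of 136 tests passed as higher and 3 as lower. The G protein beta subunit *Gnb4* was lower in cluster 10 on 7 of 7 plates (20.3 ± 22.9 against 96.3 ± 19.7 CPM; -3.38, edgeR adjusted p = 0.0245).

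Of the effectors, 3 of 126 tests passed as higher and 3 as lower. *Adcy2*, an adenylyl cyclase, had no UMI in cluster 13, at least 21.6-fold below the other PVH cells of its plates (edgeR adjusted p = 0.0156). Of receptor regulation, 7 of 181 passed as higher (3.87%) and 15 as lower (8.29%), against 1.05% and 2.24% of all tests. In cluster 1, 6 of the 15 genes tested passed as lower, where 6.30% of all genes did. *Adrbk2*, a kinase that phosphorylates active receptors, was at 0.0725 ± 0.162 CPM in cluster 2 against 27.1 ± 6.60 (log2 fold change -8.23, lower on 5 of 5 plates, edgeR adjusted p = 0.0134).

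*Pomc*, the precursor of beta-endorphin, was in 279 of 664 PVH cells and 10 of 42 others. Its level ranged from 8.17 ± 9.76 CPM in cluster 14 to 39.5 ± 26.4 CPM in cluster 2, and it passed in none of the 11 clusters tested. *Npy*, another abundant peptide gene of the arcuate nucleus beside *Agrp*, was in 3 of the 664. None of the 47 tests of other opioid ligands and receptors passed.

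The genes whose mean log2(CPM + 1) over the 12 PVH clusters ran most like each member were named among 7949 genes. For *Oprk1* they were *Srgap1* (Pearson r 0.971), *Oxt* (0.964) and *Rspo4* (0.937), all highest in cluster 1. For *Pnoc* they were *Ebf1* (0.990), *Chodl* (0.989) and *Mab21l2* (0.983), all highest in cluster 9. For *Pdyn* they were *Mmadhc* (0.932), *Pop5* (0.932) and *Lgi2* (0.924). For *Penk* they were *Car10* (0.890), *Adarb2* (0.890) and *Hpca* (0.889). For *Oprl1* they were *Stx1a* (0.951), *Ino80c* (0.936) and *Gm26699* (0.934), highest in cluster 12. These correlations rest on 12 points that share libraries and depth, and are descriptions.

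On the GRCm38 mouse genome with the GENCODE annotation given for it, *Pdyn* lies on chromosome 2 at 129686565 to 129699844 (minus strand) and *Oprl1* on the same chromosome at 181715016 to 181720985 (plus). *Oprk1* lies on chromosome 1 at 5588466 to 5606131 (plus) and *Pnoc* on chromosome 14 at 65400673 to 65425472 (minus). *Penk* lies on chromosome 4 at 4133531 to 4138819 (minus) and overlaps *A830012C17Rik* on the other strand, while *Oprd1* lies at 132110726 to 132144486 (minus) of the same chromosome. *Oprm1* lies on chromosome 10 at 6758506 to 7038198 (plus) and overlaps *Gm10945* and *Ipcef1* on the other strand. Whether counting used strand is not given in the sources used here, so reads of these overlapping genes could not be told apart for *Penk* and *Oprm1*.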

How the data were processed

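Single cells were picked by hand into strips, reverse transcribed with cell barcodes and UMIs and pooled per plate. Per the submitters' processing notes, Trimmomatic 0.36 and STAR 2.5.3a were used with GRCm38.p5. The deposited table holds UMI counts per gene and well, and the deposited cell table gives the authors' cluster and total count of 706 cells. Their totals equalled, in all 706 cells, the counts less the mean plus 2 SD of 4 control wells per plate. The counts as deposited were used, with that subtraction as an alternative. The 7 members and all gene lists were chosen with earlier results of these data known.

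Counts were summed per plate and cluster (at least 3 cells, at least 3 plates) and each of 12 PVH clusters was tested against the other PVH cells of the same plates with edgeR 4.0.16 (TMM, filterByExpr, quasi-likelihood, plate as a term), adjusted over all genes of a cluster. Non-PVH, pair and prefix comparisons used exact sign-flip or permutation tests over plates. All plates form 1 group, so no comparison between sample groups exists. Alternatives were DESeq2 1.42.0, RLE size factors, no filter, no plate term, at least 5 cells per sum, at least 3 UMIs, thinning to 63046 UMIs (71 shallower cells left out, 1 of them from a Q plate), each plate left out and prefixes apart. Scripts were tested on simulated data. Named beside the members were the gene of each pathway list with the largest change past the threshold, *Pomc*, and, for members in over 40% of the cells of a PVH cluster, the 3 genes most alike in pattern. The spike-in and barcode files were not used. Plates are the replicates, and the animals behind them are not tied to plates by the labels.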

Additional observations from a re-analysis of the deposited data

Results flagged for a closer look

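*Pdyn* in cluster 1 reached 242 CPM on plate JM7, apart from the other 9 plates at 54.2 to 129 CPM. It was 1 of 21 combinations of member and cluster examined for a plate far from the rest, and chance alone picks out about 1 group in 20. Without JM7 the result that *Pdyn* was lower in cluster 1 still passed. The same plate held no *Penk* in cluster 14. The cause was not tested.

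Wells that are neither cells of the deposited cell table nor in the control column held opioid UMIs too: *Pdyn* was found in 43 of 174 such wells (24.7%), against 1 of 40 low control wells. *Oprl1* was in 52 of them, *Oprk1* in 24, *Penk* in 17, *Pnoc* in 9, *Oprm1* in 2 and *Oprd1* in 0. What these wells held was not tested.

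*Penk* in cluster 10 went opposite ways by plate prefix. Against the other PVH cells its log2 fold change was 2.56 on the 4 Q plates, higher on each (edgeR adjusted p = 0.0386), and -4.36 on the 3 AL and JM plates, lower on each (edgeR adjusted p = 4.55e-05). The difference between the prefixes was not tested, and the prefix cannot be told apart from depth, picking or animals.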

How the results depend on the processing

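Counts of member calls under other settings were as follows. Higher calls numbered 5, with 3 on Q plates alone, 3 on AL and JM plates alone and 4 to 6 when a plate was left out. Of those on Q plates, 2 were among the 5 (*Oprk1* in cluster 1, *Pdyn* in cluster 2) and the other was *Penk* in cluster 10. Lower calls numbered 17, 6 on Q plates alone and 12 to 16 with a plate left out. Pathway genes called higher numbered 23, 41 with DESeq2, 6 on Q plates alone and 15 to 23 with a plate left out. Those called lower numbered 48, 85 with DESeq2, 27 without the plate term, 29 with at least 5 cells per sum, 10 on Q plates alone and 33 to 44 with a plate left out. Fewer plates and clusters enter the fits by prefix, 7 clusters on Q and 9 on AL and JM plates. The single non-PVH call became 0 on AL and JM plates alone and 0 to 1 with a plate left out. On AL and JM plates alone too few plates held both kinds of cell for the sign-flip test to pass. That setting therefore cannot decide. Prefix calls in cluster 1 rose from 0 to 1 after thinning. Pair calls stayed at 0 under every setting tried. With a plate left out or prefixes apart, too few plates remained for a single pair to pass the sign-flip test after adjustment. Those settings therefore cannot decide on single pairs. RLE size factors moved the median of all genes by 0.01 to 0.17 (log2) and reversed no member. The edgeR tests of each PVH cluster compared cells of the same plates, with the plate as a term. Without it *Penk* in cluster 13, *Oprk1* and *Pdyn* in cluster 10 and *Oprl1* in cluster 1 no longer passed. *Oprd1* had too few UMIs for a test in any cluster.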
